A study of Mus musculus with 22 samples.

Results

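Ch25h, Osbpl5, Apoa1 and Apoc4 are 4 mouse genes that make, carry or package cholesterol and its oxidized derivatives. They are treated here as 1 set, oxysterol and lipoprotein genes, and followed in the deposited H3K4me3 tables of synovial fibroblasts, by collecting every region that those tables assigned to 1 of the 4 gene names. This gave 11 regions of 26201 listed in all 4 tables: 6 for Osbpl5, 3 for Ch25h, and 1 each for Apoa1 and Apoc4. The genes were chosen with their changes in these tables known, so their values are given as a description and without a test.

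ChIP-seq for H3K4me3 was done on fibroblasts of the joint's synovial lining, grown from mice of a CBA x C57BL/6J background and used at passages 4-5. The groups comprised Tg197 and wild-type (WT) fibroblasts at 3 weeks, Tg197 and WT cells at 8 weeks, Tg197 and WT cells at 11 weeks, and WT cells of 8 weeks exposed to TNF, whose controls were the untreated WT cells of 8 weeks. Tg197 mice express human TNF from a transgene and become arthritic, and the TNF group sets the cytokine alone beside them. How inflamed the joints were at each age was not examined here. Each of the 7 groups had 3 libraries, 21 in all, and 1 input library was labelled as of mixed genotype. The sources used here give neither the dose and duration of TNF nor the animals or cultures behind the libraries, so the spread shown is that between libraries. The 3 values of a group carry no replicate number and are given in the deposited order, as libraries a, b and c.

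Cholesterol 25-hydroxylase, the product of the intronless gene Ch25h, adds a hydroxyl group to cholesterol and makes 25-hydroxycholesterol. That oxysterol holds back the SREBP factors that drive cholesterol synthesis, activates the LXR nuclear receptors, limits the entry of many viruses, and after a further hydroxylation by Cyp7b1 attracts lymphocytes through the receptor Gpr183. Ch25h is known as a gene induced by interferon and by inflammatory signals in macrophages. Osbpl5 encodes ORP5, a member of the oxysterol-binding protein family that sits in the endoplasmic reticulum at contacts with the plasma membrane and exchanges phosphatidylserine for a phosphoinositide; the gene lies in an imprinted cluster of mouse chromosome 7. Apoa1 encodes the main protein of high-density lipoprotein and is made by liver and intestine, and Apoc4 encodes a small apolipoprotein of the liver from the cluster that also holds Apoe and Apoc2. H3K4me3, trimethylation of lysine 4 of histone H3, marks the start of active or poised genes, and its amount is a measure of the promoter's chromatin, not of transcript.

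The promoters of the 4 genes are shown because the marked regions lie on or beside them. Each is the RefSeq window on GRCm38.p6 from 250 bases before to 50 bases after the annotated start, printed 5′ to 3′ along the gene with CpG dinucleotides in capitals. The Ch25h window is chr19:34475099-34475398 on the minus strand, the first of 3 Osbpl5 windows is chr7:143756959-143757258 on the minus strand, the Apoa1 window is chr9:46228380-46228679 on the plus strand, and the Apoc4 window is chr7:19681411-19681710 on the minus strand.
Ch25h: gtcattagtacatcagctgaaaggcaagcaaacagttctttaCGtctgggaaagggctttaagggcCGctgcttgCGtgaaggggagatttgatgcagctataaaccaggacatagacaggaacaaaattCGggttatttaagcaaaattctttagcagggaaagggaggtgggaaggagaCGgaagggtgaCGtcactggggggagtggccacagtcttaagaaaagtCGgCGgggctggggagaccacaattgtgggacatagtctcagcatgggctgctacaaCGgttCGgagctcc
Osbpl5: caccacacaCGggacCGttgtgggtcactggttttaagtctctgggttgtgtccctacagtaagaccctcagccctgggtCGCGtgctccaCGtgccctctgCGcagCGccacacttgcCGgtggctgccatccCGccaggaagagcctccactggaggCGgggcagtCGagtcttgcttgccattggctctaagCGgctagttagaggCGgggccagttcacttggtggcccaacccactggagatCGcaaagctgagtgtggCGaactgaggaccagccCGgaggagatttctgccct
Apoa1: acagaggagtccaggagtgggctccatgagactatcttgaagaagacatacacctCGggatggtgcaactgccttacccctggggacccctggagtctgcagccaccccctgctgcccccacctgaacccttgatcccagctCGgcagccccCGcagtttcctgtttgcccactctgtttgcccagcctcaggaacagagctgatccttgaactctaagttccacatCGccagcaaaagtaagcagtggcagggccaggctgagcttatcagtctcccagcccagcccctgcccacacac
Apoc4: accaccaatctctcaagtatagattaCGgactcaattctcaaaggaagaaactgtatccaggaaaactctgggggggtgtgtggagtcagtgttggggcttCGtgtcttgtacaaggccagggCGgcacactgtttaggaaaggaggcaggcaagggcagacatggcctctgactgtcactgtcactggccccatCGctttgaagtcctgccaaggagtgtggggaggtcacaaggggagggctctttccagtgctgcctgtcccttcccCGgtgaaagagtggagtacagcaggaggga

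The 4 promoters differed in CpG content. The Osbpl5 window held 16 CpG dinucleotides at a GC content of 62.0%, and the Ch25h window 10 at 51.0%. The Apoc4 window held 5 at 55.0%, and the Apoa1 window 4 at 59.3%. Among 32851 RefSeq promoter windows of the same length the median was 7 CpG, so Osbpl5 and Ch25h lay above it and Apoa1 and Apoc4 below. The ratio of observed to expected CpG was 0.566 for Ch25h and 0.555 for Osbpl5, against 0.227 for Apoc4 and 0.158 for Apoa1. Osbpl5 has 2 further annotated starts, 15045 and 16648 bases into the gene, with 1 and 21 CpG.

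**Figure D1:**
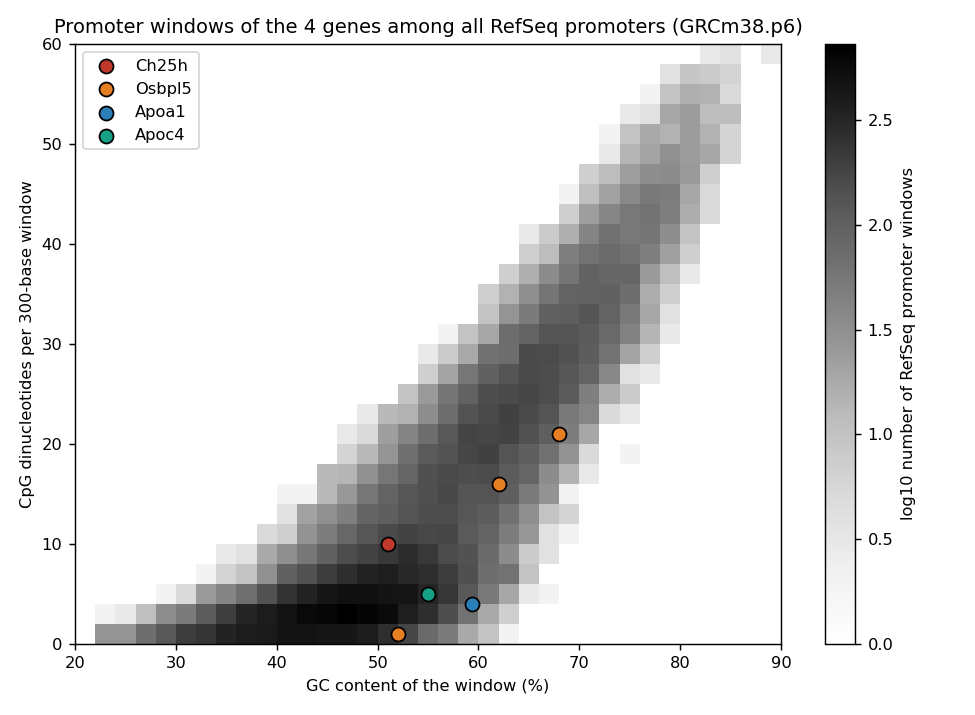
GC content in percent (x axis) against the number of CpG dinucleotides (y axis) in 300-base RefSeq promoter windows, with the log10 number of windows in grey and the 6 windows of the 4 genes as coloured points. Ch25h with 10 CpG and the first Osbpl5 start with 16 lie above Apoc4 with 5 and Apoa1 with 4.

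Each window was searched on both strands for a few textbook promoter motifs, chosen after the sequences had been seen. The Ch25h promoter holds the full palindrome of the cyclic-AMP response element, TGACGTCA, at positions -61 to -54 from its start, a motif that 1.79% of all RefSeq windows hold. The stretch around it is printed with the motif in capitals.
Ch25h cyclic-AMP response element: cggaagggTGACGTCActgggggg
The same window holds a TATAAA at -151 to -146, which 13.6% of windows hold. The first Osbpl5 window has a CCAAT box on the opposite strand at -67 to -63, a motif in 37.4% of windows, and the Apoc4 window has one at -246 to -242. The GC box, GGGCGG, is in 35.7% of windows. It was found in the Apoc4 window at -130 to -125. The last of the 3 Osbpl5 windows holds it at -232 to -227 and, on the opposite strand, at -90 to -85 and -39 to -34. None of the 6 windows of the 4 genes matched the AP-1 letters TGANTCA (7.81% of windows), the sterol regulatory element (0.0913%) or the NF-kB consensus (8.46%). A match describes letters only, and a missing match says only that these letters are not in this window.

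The 4 tables hold the regions that the authors listed as differing, on the mm9 build, so a gene without a region in a table has no value there. Reads in listed regions summed to between 321448 and 2780941 per library. The sums follow the number of regions a table lists, 13603 (3 weeks), 2923 (8 weeks), 6593 (11 weeks) and 3082 (TNF), so they do not rank the libraries of different tables by depth. In each table most regions were lower in the Tg197 or TNF-treated libraries: the median log2 changes of the tables were -0.70 (3 weeks), -0.86 (8 weeks), -0.60 (11 weeks) and -0.58 (TNF). Of 16 markers of synovial fibroblasts, 11, 5, 6 and 5 had a listed region in the 3, 8 and 11 week and TNF tables. Pdpn, Pdgfra, Thy1 and Col1a2 were among them in 1 or more tables. In the same order, 5, 3, 5 and 1 of the fibroblast markers were higher and 6, 2, 1 and 4 lower. None of 10 hepatocyte markers, albumin and transthyretin among them, was listed in any table. Of 18 leukocyte markers, 2, 2, 1 and 0 were listed, each lower in Tg197, and of 7 adipocyte markers only Adipoq and Pparg were listed, at 11 weeks and lower in Tg197. Of 7 endothelial markers 3, 0, 2 and 1 were listed, of which 1, 0, 1 and 0 were higher and 2, 0, 1 and 1 lower. Of 7 muscle and cartilage markers 3, 3, 1 and 2 were listed, all lower. Most listed regions of every table were lower, so nothing is read from the direction of the markers. A marker missing from these tables may still carry the mark at equal levels, so this check of the cell type is a partial one, and the part of other cells in the results was not tested. Fewer cells of a type and less of the mark per cell cannot be told apart in bulk cultures.

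Ch25h carried more H3K4me3 in Tg197 than in WT fibroblasts at 3 and 11 weeks and in TNF-treated than in untreated fibroblasts, by 1.52 to 1.85 times. At 3 weeks its region, chr19:34547301-34549200 (mm9), ran from +424 to +2323 relative to the start of transcript NM_009890, covering the distal part of the single exon and the sequence beyond its end. It held 288, 289.9 and 278 normalized reads in the 3 Tg197 libraries, against 126, 188 and 160.2 in the 3 WT libraries. The Tg197 libraries were nearly equal to each other and all above every WT library. The means were 285 ± 6.12 normalized reads in Tg197 and 158 ± 30.9 in WT (SD, n = 3 each), a log2 change of 0.87 ± 0.18 (SE).

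At 11 weeks the Ch25h region, chr19:34547901-34550200, reached across the start, from -576 to +1723. It held 403, 478 and 451 normalized reads in Tg197 libraries and 307, 307 and 265 in WT libraries. The groups did not overlap, and the lowest Tg197 library exceeded the highest WT library. The means were 444 ± 38.4 in Tg197 and 293 ± 24.1 in WT (SD, n = 3 each), a log2 change of 0.60 ± 0.10 (SE). At 11 weeks 14.1% of listed regions had a larger log2 change than Ch25h, against 0.00735% at 3 weeks.

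With TNF the Ch25h region, chr19:34547601-34550000, ran from -376 to +2023 and held 534, 655 and 604 normalized reads in treated libraries, against 376, 348 and 243 in untreated WT libraries. Every treated library lay above every untreated one. The means were 598 ± 60.9 with TNF and 322 ± 69.8 without (SD, n = 3 each), a log2 change of 0.91 ± 0.18 (SE), and in the authors' deposited table only 1 of the 3082 regions had a larger log2 change. These values rest on unequal depth: the 3 treated libraries had 295, 1803 and 1098 reads in the region and the 3 untreated libraries 219, 189 and 300. No Ch25h region was listed for Tg197 against WT at 8 weeks, nor was any other gene's region within 100 kb of it there.

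The 3 Ch25h regions shared 1300 bases, chr19:34547901-34549200, inside and just beyond the gene, while the authors' best window in each differed in place. A best window lies inside its listed region, so its place depends on the extent of that region. In the authors' deposited table of 3 weeks the best window lay at +1224 to +2223 with a log2 change of 0.88. The whole region, which began only at +424, had 0.85. At 11 weeks the best window of the authors' deposited table straddled the start, at -576 to +423, with 0.59, beside 0.60 for the whole region. With TNF it lay at +524 to +1523 with 1.36 in the authors' deposited table, above the 0.89 of the whole region. The authors' deposited table also gives an enrichment ratio for each group, whose scaling the sources used here do not give: 4.43 in Tg197 and 1.67 in WT at 3 weeks, 3.95 and 2.48 for Tg197 and WT at 11 weeks, and 8.79 with TNF against 2.03 without.

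**Figure D2:**
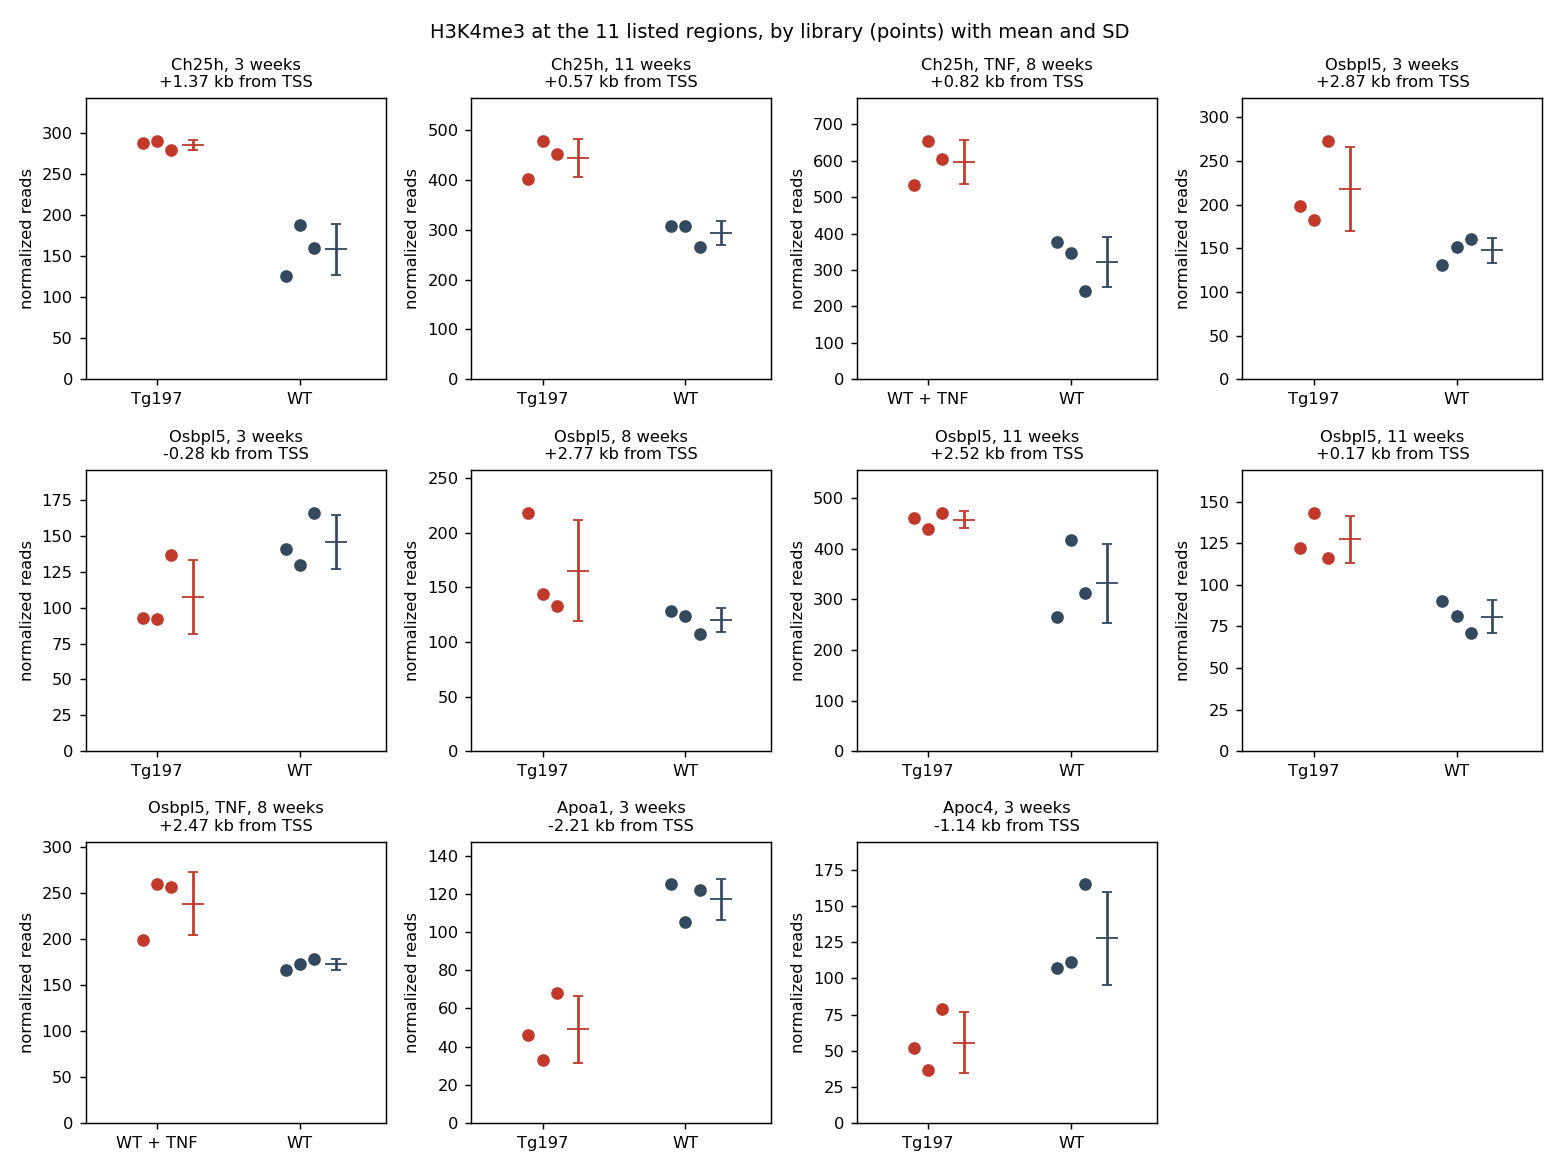
Normalized reads (y axis, from 0, scaled per panel) in each of the 11 regions, one point per library, with the mean and SD beside them; Tg197 or TNF-treated libraries are red and WT libraries dark blue, and the midpoint's distance from the transcription start site (TSS) stands above each panel. Only the Osbpl5 region over the start at 3 weeks has overlapping groups, with Tg197 at 92.2 to 137 and WT at 129.7 to 166.

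Osbpl5 was the only 1 of the 4 genes with a region in all 4 tables, and a stretch about 2 to 3 kb inside the gene held more H3K4me3 in the Tg197 or TNF-treated libraries each time. The 4 regions there shared 600 bases, chr7:150924901-150925500 (mm9), and transcript NM_024289 starts at 150927867 and runs leftward. Whether they fall on exons or introns was not analysed here. At 3 weeks the inner region, chr7:150924501-150925500, held 198, 183 and 273 normalized reads in Tg197 libraries, against 131, 151 and 160.2 in WT libraries. All Tg197 libraries were above the WT libraries, and library c of Tg197 stood highest. Raw reads were 249, 315 and 201 in Tg197 libraries a, b and c, so library c stood highest only after scaling. Each raw read counted as 0.795, 0.580 and 1.36 normalized reads in libraries a, b and c. The means were 218 ± 48.3 in Tg197 and 147 ± 14.8 in WT (SD, n = 3 each), 1.48-fold, with a log2 change of 0.54 ± 0.19 (SE).

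At 8 weeks the inner Osbpl5 region, chr7:150924601-150925600, held 219, 144 and 133 normalized reads in Tg197 libraries and 129, 124 and 108 in WT libraries. The groups did not overlap, but Tg197 library c lay only just above the highest WT library, and library a set most of the difference. The means were 165 ± 46.5 in Tg197 and 120.1 ± 11.1 in WT (SD, n = 3 each), a log2 change of 0.43 ± 0.26 (SE), and without Tg197 library a it was 0.21. At 11 weeks the region was wider, chr7:150924501-150926200, and held 462, 438 and 471 normalized reads in Tg197 libraries and 265, 417 and 313 in WT libraries. WT library b came close to the Tg197 libraries and WT libraries a and c did not. The means were 457 ± 16.9 in Tg197 and 332 ± 77.6 in WT (SD, n = 3 each), a log2 change of 0.49 ± 0.13 (SE).

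With TNF the inner Osbpl5 region, chr7:150924901-150925900, held 199, 259 and 257 normalized reads in treated libraries and 166, 173 and 178 in untreated WT libraries. Again the groups did not overlap. The means were 238 ± 34.2 with TNF and 173 ± 6.01 without (SD, n = 3 each), a log2 change of 0.46 ± 0.16 (SE). Larger log2 changes than at the inner region were found in 1.26% (3 weeks), 16.1% (8 weeks), 22.4% (11 weeks) and 13.9% (TNF) of listed regions. The 8 week Tg197 and the TNF comparison used the same 3 untreated WT libraries, normalized separately, so 0.43 for Tg197 and 0.46 for TNF are not independent of each other. The authors' deposited table gives enrichment ratios at the inner region of 4.38 in Tg197 and 2.15 in WT at 3 weeks, 4.07 and 1.80 for Tg197 and WT at 8 weeks, 6.11 and 4.33 for Tg197 and WT at 11 weeks, and 7.53 with TNF against 2.51 without.

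Regions over the Osbpl5 start itself were listed at 3 and at 11 weeks and lay on opposite sides of 0 at the 2 ages. At 3 weeks the start region, chr7:150927501-150928800, from -933 to +366, held 93.0, 92.2 and 137 normalized reads in Tg197 libraries and 141, 129.7 and 166 in WT libraries. Libraries a and b of Tg197 were below all WT libraries, but library c was not, so the groups overlapped. Raw reads there were 117, 159 and 101 in Tg197 libraries a, b and c, the fewest in library c. The means were 107 ± 25.7 in Tg197 and 146 ± 18.8 in WT (SD, n = 3 each), a log2 change of -0.45 ± 0.20 (SE). The region had an adjusted p of 0.248 in the authors' deposited table and its best window there, at -933 to +66, had a log2 change of -0.55 with an adjusted p of 0.000305. At 11 weeks the start region, chr7:150927201-150928200, from -333 to +666, held 122, 143 and 116 normalized reads in Tg197 libraries and 90.5, 81.1 and 70.8 in WT libraries. Here all Tg197 libraries lay above all WT libraries. The means were 127 ± 14.3 in Tg197 and 80.8 ± 9.87 in WT (SD, n = 3 each), a log2 change of 0.65 ± 0.16 (SE).

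**Figure D3:**
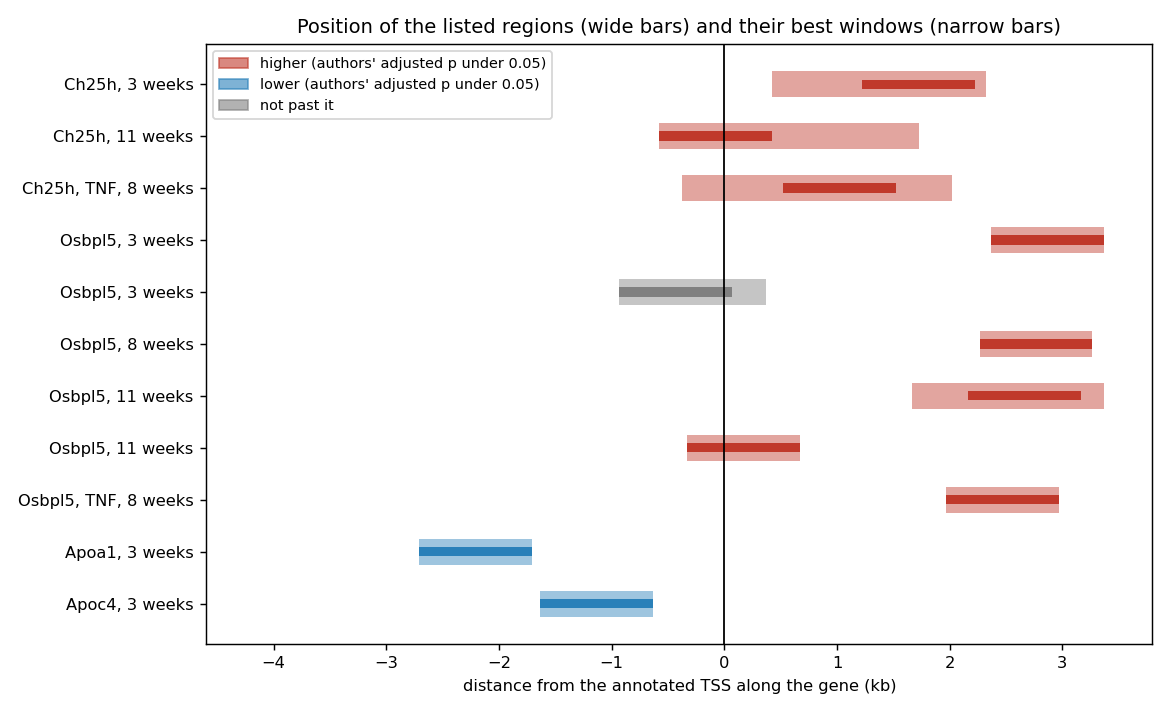
Extent of the 11 regions (wide bars) and of the best window in each (narrow bars) relative to the annotated TSS, in kb along the gene (x axis), coloured by the authors' call. The Ch25h bars cover or follow the start, the 4 inner Osbpl5 bars lie downstream of it, and the Apoa1 and Apoc4 bars lie upstream and do not reach it.

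Apoa1 and Apoc4 were listed at 3 weeks only, with a region upstream of the start and less H3K4me3 in Tg197 than in WT fibroblasts. The Apoa1 region, chr9:46034001-46035000 (mm9), lay from -2711 to -1712 relative to transcript NM_009692 and held 46.1, 33.05 and 67.9 normalized reads in Tg197 libraries, against 125, 105 and 122 in WT libraries. The highest Tg197 library was far below the lowest WT library. The means were 49.0 ± 17.6 in Tg197 and 117 ± 10.7 in WT (SD, n = 3 each), 2.39-fold lower in Tg197, with a log2 change of -1.31 ± 0.35 (SE). Of the 1585 listed regions at 3 weeks that were annotated, like this one, as lying within 3 kb of a start but beyond 1 kb, 4 had a lower log2 change.

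The Apoc4 region, chr7:20267401-20268400 (mm9), lay from -1636 to -637 relative to transcript NM_007385 and held 51.7, 36.5 and 78.8 normalized reads in Tg197 libraries, against 107, 112 and 165 in WT libraries. The groups did not overlap. The means were 55.65 ± 21.4 in Tg197 and 128 ± 32.2 in WT (SD, n = 3 each), 2.30-fold lower in Tg197, with a log2 change of -1.24 ± 0.33 (SE). Library b had the lowest and library c the highest normalized Tg197 value in both the Apoa1 and the Apoc4 region. This order came from the scaling: raw reads in libraries a, b and c were 58, 57 and 50 at Apoa1 and 65, 63 and 58 at Apoc4.

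Both regions held few reads. Raw reads per library numbered 50 to 119 in the Apoa1 region and 58 to 134 in the Apoc4 region, against 120 to 500 in the Ch25h region of the same table. Per kb, the Apoa1 region averaged 49.0 normalized reads in Tg197 and 117 in WT, the Ch25h region 150.2 in Tg197 and 83.2 in WT, and only 1.25% of the listed regions had a lower mean over the 6 libraries than Apoa1. For Apoc4 this share was 17.9%. The authors' deposited table gives enrichment ratios of 1.44 in Tg197 and 2.61 in WT at Apoa1, and of 1.20 in Tg197 and 2.09 in WT at Apoc4. Neither region covers the promoter window printed for its gene.

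Across the 11 regions, 8 were higher, 2 lower and 1 not called at an adjusted p of 0.05 in the authors' deposited tables, and the libraries of the 2 groups did not overlap in 10. At 3 weeks 2 were higher and 2 lower, beside 9.71% of all listed regions higher and 89.5% lower. In the 8 week table the 1 region was higher, as were 20.2% of listed regions, while 77.2% were lower. All 3 regions at 11 weeks were higher, beside 29.8% of listed regions higher and 67.0% lower, and both regions in the TNF table were higher, beside 24.6% higher and 72.3% lower. The share of all listed regions whose groups did not overlap was not computed, and only regions that differed were listed. The genes had been chosen on these comparisons, so nothing is read from the counts.

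The sizes depended on how the libraries were scaled. Scaling each library to its own median over the listed regions moved these medians to -0.04 (3 weeks), -0.15 (8 weeks), -0.26 (11 weeks) and -0.07 (TNF), and the share of rises among limma's calls to 99.4%, 81.6%, 75.3% and 75.0%, beside 5.00%, no call, 30.4% and 27.9% in the same order under the authors' scaling. Under that setting Ch25h had log2 changes of 1.54 at 3 weeks, 0.94 at 11 weeks and 1.42 with TNF, the inner Osbpl5 region had 0.83 to 1.21, and Apoa1 and Apoc4 kept a lower level in Tg197, at -0.64 and -0.57. The Osbpl5 start region at 3 weeks changed sign, to 0.21. Scaling on the listed regions nearest to starts (under 1 kb) lowered the values, with 0.54, 0.45 and 0.80 for Ch25h at 3 weeks, at 11 weeks and with TNF and 0.21 to 0.35 for the inner Osbpl5 region. It also lowered the share of rises among limma's calls, to 0.0245% (3 weeks), 0.694% (8 weeks), 24.8% (11 weeks) and 10.2% (TNF). Relative to the median listed region of its table, Ch25h stood higher by 1.57 at 3 weeks, 1.20 at 11 weeks and 1.49 with TNF on the log2 scale, and Apoa1 and Apoc4 differed from it by -0.60 and -0.53.

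**Figure D4:**
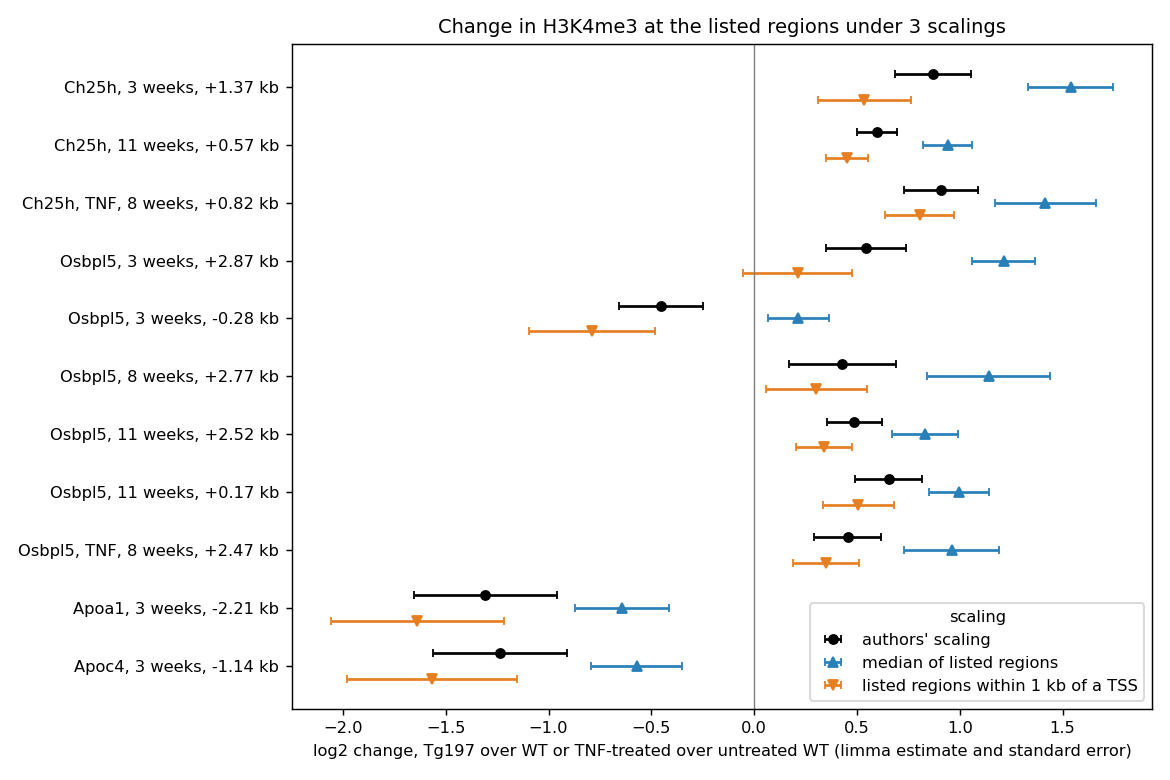
Log2 change (limma estimate with SE, x axis) of each region under the authors' scaling (black circles), scaling to the median of listed regions (blue triangles pointing up) and scaling on regions less than 1 kb from a TSS (orange triangles pointing down). All Ch25h points lie right of 0 and all Apoa1 and Apoc4 points left of it, while the Osbpl5 start region at 3 weeks lies at -0.45, 0.21 and -0.79.

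Other listed regions within 100 kb of a region of the 4 genes, or of the gene itself in a table that lists none for it, were examined using limma on all regions of a table, where rose and fell mean a Benjamini-Hochberg adjusted p under 0.05. At 3 weeks 4.68% of all listed regions rose and 88.9% fell, and without WT library c no region passed. With TNF 16.5% rose and 42.6% fell, and none passed without TNF library b, TNF library c, WT library a or WT library b. Around Apoc4, 5 regions inside Sfrs16, Clptm1 and Pvrl2 all fell at 3 weeks, with log2 changes of -0.58 to -0.75 beside -1.24 at Apoc4. Scaled to the median of listed regions those 5 stood at -0.09 to 0.08, on both sides of 0, and Apoc4 at -0.57. Beside Apoa1, the promoter of Bud13, a splicing factor gene, rose at 3 weeks by 0.37 ± 0.16 on the log2 scale (SE), which was 1.04 when scaled to the median of listed regions and 0.036 when scaled on regions less than 1 kb from a start. At 11 weeks the promoter of Zfp259, a zinc finger gene, rose near Apoa1 (0.48 ± 0.13). Around Apoc4, 4 regions rose at 11 weeks and 2 fell. Apoe and a region inside Relb, an NF-kB subunit gene, rose (Relb 0.57 ± 0.16), and so did 2 regions of Pvrl2, over the start (0.43 ± 0.10) and inside the gene (0.57 ± 0.16). Apoc2 and a further region inside Relb fell (Relb -0.68 ± 0.22). These 7 regions of 11 weeks kept their sign under both other scalings. With TNF a region at Zfp296 and one inside Pvrl2 were listed near Apoc4 and did not pass. Near Osbpl5, Tnfrsf23, a decoy receptor gene of the TRAIL family, fell at 3 weeks (-0.57 ± 0.18, but 0.10 when scaled to the median of listed regions) and rose at 11 weeks (0.46 ± 0.15). The 3 week region lay inside the gene and the 11 week region over its start, and they do not overlap. At 11 weeks, when 29.6% of regions rose and 67.7% fell, the interferon-induced gene Ifit2 rose near Ch25h by 0.65 ± 0.15. With TNF the promoter of Dhcr7, the last enzyme of cholesterol synthesis, fell by 0.51 on the log2 scale, 82501 bases from the Osbpl5 region, and was at -0.0050 when scaled to the median of listed regions. Farther from Ch25h on chromosome 19, the death receptor gene Fas had log2 changes of 0.54 ± 0.10 at 11 weeks and 0.59 ± 0.17 with TNF, both of which passed. It had 0.37 ± 0.22 at 3 weeks and 0.48 ± 0.21 at 8 weeks, which did not pass.

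Genes were ranked by how close their authors' log2 changes came to those of Ch25h and Osbpl5 over the tables that list them within 3 kb of a start. For Ch25h, over 3 tables and among 97 genes, the nearest was Tnfaip3, which encodes the NF-kB inhibitor A20, with a root mean square difference of 0.0954. In the authors' deposited tables Tnfaip3 had log2 changes of 0.95 at 3 weeks, 0.73 at 11 weeks and 0.87 with TNF. Ninl (0.140) and the interferon-induced Parp14 (0.179) came next. For Osbpl5, over 4 tables and among 32 genes, the nearest was Yap1, the Hippo pathway coactivator gene, at 0.0658, with 0.44, 0.49 and 0.48 at 3, 8 and 11 weeks and 0.43 with TNF in the authors' deposited tables. Zdhhc12 (0.0731) and 6330406I15Rik (0.0904) followed. The 8 week and TNF tables share their WT libraries, so these are not 4 independent comparisons, and no ranking was made for Apoa1 and Apoc4, which have 1 table each.

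The other 132 genes of the pathway, in 5 lists, were read by the region nearest to each start. At 3 weeks 42 of them had a listed region, of which 6 rose and 32 fell with a median log2 change of -0.62, beside -0.63 over all 4977 genes with a listed region, of which 570 rose and 3701 fell. At 11 weeks 36 were listed, of which 10 rose and 25 fell (median -0.61, against -0.55 over 3438 genes, of which 1215 rose and 2084 fell). With TNF 19 were listed, of which 4 rose and 6 fell (median -0.39, against -0.48 over 2240 genes, of which 479 rose and 786 fell). At 8 weeks 15 were listed and limma called none by its adjusted p, as for the whole table, where 0.0% rose and 0.0% fell, voom also called none and 1876 of 2923 regions had an unadjusted p under 0.05. In the authors' deposited table of 8 weeks 5 of the 15 were higher and 10 lower. Regions farther than 3 kb from a start weigh on these medians. Within 3 kb of a start, 17 pathway genes at 3 weeks had a median of -0.54 with 5 rises and 10 falls, against -0.52 over 2782 genes, of which 546 rose and 1556 fell. At 11 weeks 17 had a median of -0.47 with 7 rises and 9 falls, against 0.13 over 1670 genes, of which 765 rose and 775 fell. With TNF the sign of the median turned: 15 had a median of 0.32 with 4 rises and 3 falls, against -0.40 over 1727 genes, of which 466 rose and 438 fell. With libraries scaled to the median of listed regions the directions of these lists changed: 6 rose and 0 fell at 3 weeks, 11 rose and 3 fell at 11 weeks, and 7 rose and 0 fell with TNF. At 8 weeks 1 rose and 1 fell. Scaling on the listed regions less than 1 kb from a start moved them the opposite way. Then 0 rose and 33 fell at 3 weeks, 0 and 8 at 8 weeks, 8 and 25 at 11 weeks, and 1 and 10 with TNF. The named genes whose own sign turned under the scaling to the median are given with the other effects of processing.

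Among the enzymes that make or modify sterols, Cyp7b1, which turns 25-hydroxycholesterol into the ligand of Gpr183, gained H3K4me3 with TNF. Its promoter region held 208, 216 and 216 normalized reads in treated libraries, against 161, 166 and 133 in untreated WT libraries, and the groups did not overlap. The log2 change was 0.48 ± 0.17 (SE, limma adjusted p = 0.0461). In the same comparison Fdft1 (-1.39 ± 0.52), Nsdhl (-0.61 ± 0.18) and Dhcr7 (-0.51 ± 0.19), 3 enzymes of cholesterol synthesis, fell. The Fdft1 region lay inside the gene and those of Nsdhl and Dhcr7 at the promoter. At 3 weeks the promoter region of Fdft1 rose (0.45 ± 0.18). Cyp27a1, the sterol 27-hydroxylase, fell at 11 weeks by 0.96 on the log2 scale, in a region inside the gene with 57.8, 61.5 and 62.8 normalized reads in Tg197 libraries and 138, 91.6 and 130.3 in WT libraries. At 3 weeks the gene bodies of Lss, lanosterol synthase, and Soat2, which esterifies cholesterol, fell, with -0.83 ± 0.20 and -0.74 ± 0.20. At 3 weeks 2 enzymes rose and 6 fell of 9 listed (median log2 change -0.54), while the 5 with a region within 3 kb of the start had 2 rises and 2 falls and a median of 0.42. At 11 weeks 0 rose and 5 fell of 6, and with TNF 2 rose and 3 fell of 7.

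Of the genes that sense sterols or act downstream of LXR and SREBP, 1 rose and 8 fell of 10 at 3 weeks, 4 rose and 6 fell of 10 at 11 weeks, and 1 rose and 1 fell of 4 with TNF. Srebf2, the main SREBP gene of cholesterol synthesis, rose at 11 weeks in a region far inside the gene, with 118, 104.5 and 82.0 normalized reads in Tg197 libraries and 41.9, 61.05 and 46.1 in WT libraries. The log2 change was 1.03 ± 0.23 (SE), and the groups did not overlap. Srebf1 fell at 11 weeks (-0.85 ± 0.23), and so did Mylip, a ubiquitin ligase gene induced by LXR, at 3 weeks (-0.94 ± 0.27) and at 11 weeks (-0.66 ± 0.19). Each of these Srebf1 and Mylip regions lay inside the gene. With TNF, Insig1, which retains SREBP in the endoplasmic reticulum, rose by 0.32 ± 0.11 and Fasn, fatty acid synthase, fell (-0.68 ± 0.15).

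Of the oxysterol-binding and sterol transfer proteins, the relatives of Osbpl5, 1 rose and 8 fell of 10 at 3 weeks, 2 rose and 4 fell of 6 at 11 weeks, and 1 rose and 2 fell of 3 with TNF. At 8 weeks limma called none of 4, and 2 were higher and 2 lower in the authors' deposited table. Falls also outnumbered rises over all genes at 3 and 11 weeks and with TNF, so nothing particular to these relatives is read from the counts. Within 3 kb of a start 1 rose and 3 fell of 4 at 3 weeks, and 2 rose and 1 fell of 3 at 11 weeks. At 3 weeks Osbpl10 had 85.8, 30.7 and 97.8 normalized reads in Tg197 libraries and 155, 168 and 132 in WT libraries. It fell (-1.24 ± 0.35), and so did Osbpl11 (-1.01 ± 0.20). Both regions lay inside the gene. Osbpl8, the closest relative of Osbpl5 at the same membrane contacts, fell at 11 weeks (-1.28 ± 0.28), also far inside the gene. Gramd1a, a sterol transporter at those contacts, rose with TNF (0.48 ± 0.13), with 266, 285 and 264 normalized reads in treated libraries against 187, 191 and 205 in untreated WT libraries.

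Among apolipoproteins, Apoe, which lies in the same cluster as Apoc4, rose at 11 weeks while Apoc4 itself was not listed then. Its promoter region held 175, 145 and 105 normalized reads in Tg197 libraries and 87.2, 91.6 and 80.9 in WT libraries, a log2 change of 0.68 ± 0.18 (SE, limma adjusted p = 0.00506), and the groups did not overlap. Apoc2, next to Apoc4 in that cluster, fell at 11 weeks in a region inside the gene (-0.64 ± 0.19). Apoh (-0.69 ± 0.22) and Apol9b (-0.65 ± 0.19) fell at 11 weeks too. In all 1 rose and 5 fell of the 6 apolipoproteins listed at 11 weeks, and at 3 weeks, apart from Apoa1 and Apoc4, 2 were listed, of which Apof fell (-0.79 ± 0.20). With TNF 1 was listed, Apof, which did not pass, and at 8 weeks none was. Of the lipoprotein receptors and lipases 2 rose and 9 fell of 11 at 3 weeks, 3 rose and 5 fell of 8 at 11 weeks, and 0 of 4 passed with TNF. The HDL receptor gene Scarb1, which takes up cholesterol from particles built on the Apoa1 protein, fell at 3 weeks in a region inside the gene (-0.90 ± 0.31).

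**Figure D5:**
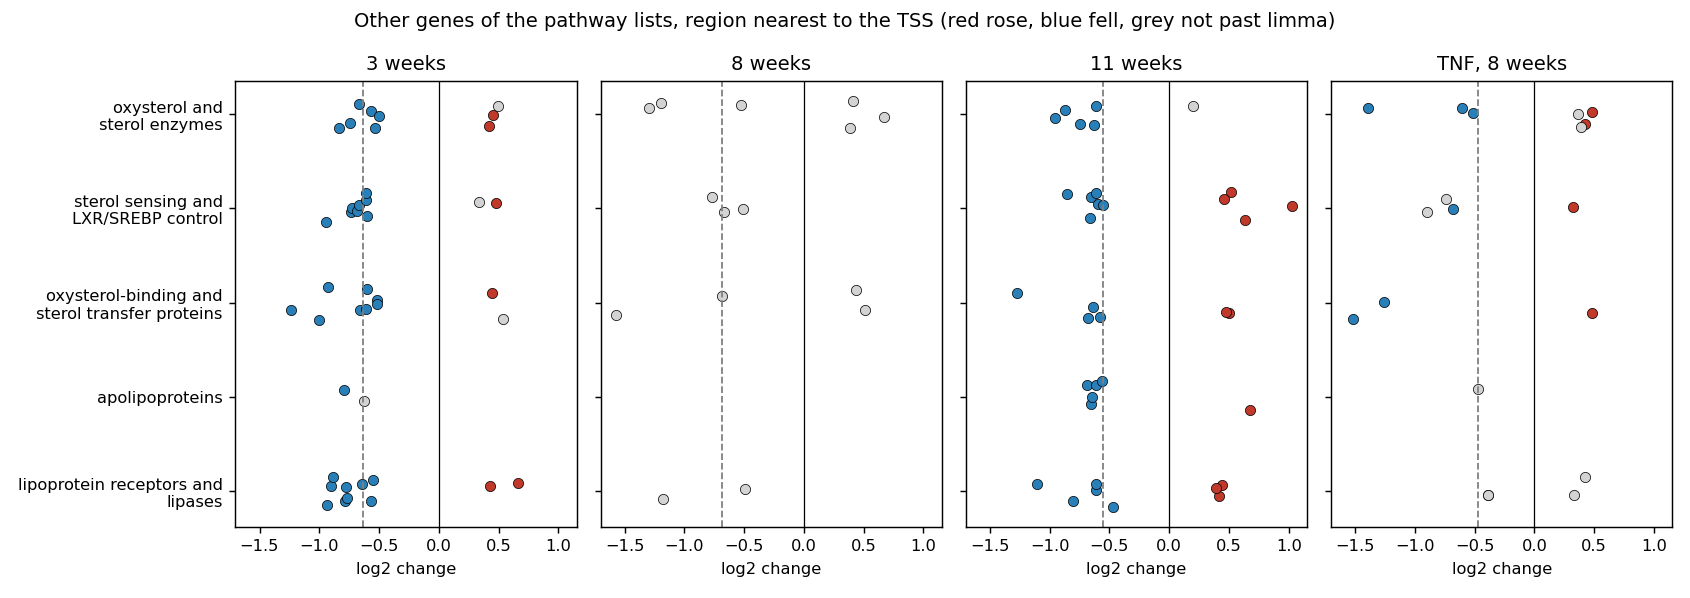
Log2 change (x axis) of each other pathway gene with a listed region, by list (rows) and comparison (panels), red where limma's adjusted p passed with a rise, blue with a fall and grey where it did not pass; the dashed line is the median over all genes with a listed region. Most points lie left of 0, near the dashed line at -0.63, -0.69, -0.55 and -0.48.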

How the data were processed

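H3K4me3 ChIP-seq libraries were grouped by the labels, and the members, the gene lists and the motifs were chosen with earlier results of these data known. Regions are on mm9. BWA, TopHat and TopHat2, Cufflinks and Cuffdiff appear in the submitters' processing notes without roles, and the sources used here do not name the region caller. Per the file headers, each listed region carries 3 normalized counts for treatment and 3 for control, made by the authors, and the deposited group average is the signal. The authors' enrichment columns hold a ratio, and their fold columns hold log2 of treatment over control. Raw and adjusted p-values of the authors, for a region and for its best window, were deposited beside them. Control was taken to be WT: in 54 regions with the same coordinates in both 8 week tables, 162 of 162 control values had equal reads, and only WT at 8 weeks belongs to both.

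Values came in whole steps that were constant for a library (100.0% of them, tolerance 0.02 normalized reads), so whole reads per library could be recovered and summed to a depth. Counting error alone is not the whole error: the mean chi-square per region between libraries of a group was 1.27 to 33.2. Limma 3.58.1 in R 4.3.3 was fitted per table to all listed regions, on log2(normalized count + 0.5), with a variance trend. It was tested on simulated data. Rose and fell mean a Benjamini-Hochberg adjusted p under 0.05, and higher and lower mean an adjusted p under 0.05 in the authors' deposited tables. Listed regions were selected on the same libraries, so these p-values are not independent evidence. The 4 genes were given values, SD and the fit's SE without a test.

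The files held normalized counts per library in place of the raw counts that had been foreseen. Alternatives were a pseudocount of 5, a minimum mean of 30 normalized reads, 2 other scalings, leaving out each library, and voom on the recovered reads, which was chosen after seeing the data. Genes that could be named from the lists, not all of which are described, were the up to 4 per list and table with the largest absolute log2 change past limma's adjusted p, or past the authors' at 8 weeks, with the region nearest to the start. Any listed region within 100 kb of a member could be named, and where a table lists none for a gene the search around the gene itself was added after seeing the data, and genes most alike were the 3 with the smallest root mean square difference in the authors' log2. Promoter sequences are from RefSeq, GRCm38.p6, where all 4 genes matched, and were compared with mm9 regions only by distance from the annotated start.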

Additional observations from a re-analysis of the deposited data

Results flagged for a closer look

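The region over the start of Osbpl5 was singled out because the log2 change of Tg197 over WT had opposite signs at 2 ages. At 3 weeks all 3 Tg197 libraries were below the WT mean, with a log2 change of -0.45, but the groups overlapped. That region was not called in the authors' deposited table (adjusted p of 0.248), and the median listed region at 3 weeks stood lower, at -0.70. At 11 weeks all 3 Tg197 libraries were above the WT mean, with 0.65, and the groups did not overlap. The 2 regions share 700 bases. The difference between the ages was not tested, since the tables were normalized separately, and the 3 week value is 0.21 when libraries are scaled to the median of listed regions.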

How the results depend on the processing

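Of 121 alternative values for the 11 regions of the 4 genes, 106 kept their sign and stayed within the spread between libraries, 14 moved further and 1 changed sign. All that moved or changed sign did so under another scaling, and scaling to the median of listed regions did this to every region. Scaling to the median of listed regions gave 1.54 (3 weeks), 0.94 (11 weeks) and 1.42 (TNF) for Ch25h, -0.64 for Apoa1 and -0.57 for Apoc4. For the inner Osbpl5 region it gave 1.21, 1.14, 0.83 and 0.96 at 3, 8 and 11 weeks and with TNF, and for its start region 0.21 at 3 weeks, a change of sign, and 1.00 at 11 weeks. Scaling on the listed regions less than 1 kb from a start gave 0.54 and 0.45 for Ch25h at 3 and 11 weeks, 0.21 for the inner and -0.79 for the start region of Osbpl5 at 3 weeks. Both scalings shift all regions of a table together. The number of regions called by limma was 946 in place of 12733 at 3 weeks, 414 in place of 0 at 8 weeks, 2759 in place of 6414 at 11 weeks and 1030 in place of 1823 with TNF under the first scaling, and 1729 at 8 weeks under the second. Called pathway genes were 6 in place of 38 at 3 weeks, 2 in place of 0 at 8 weeks and 14 in place of 35 at 11 weeks under the first, and 8 at 8 weeks under the second. Leaving out each library in turn gave 0 to 13397 regions and 0 to 41 pathway genes at 3 weeks, 0 to 2563 regions and 0 to 12 genes at 8 weeks, and 0 to 2770 regions and 0 to 13 genes with TNF. No region passed without WT library c at 3 weeks, or without TNF library b or c or WT library a or b in the TNF table, and the most passed at 8 weeks (2563) and with TNF (2770) without WT library c; the cause was not tested. Of 737 alternative values for named list regions 580 kept their sign and side of the threshold, 125 no longer passed, 23 newly passed and 9 changed sign, all 9 under the first scaling and all to small positive values. At 3 weeks these were Sult2b1 (0.000727), Pmvk (0.10), Osbpl9 (0.0096), Pcsk7 (0.011) and Clptm1 (0.027), and at 8 weeks Hsd17b7 (0.18), Fasn (0.041), Rxra (0.20) and Osbpl7 (0.028). A minimum mean of 30 normalized reads removed no region, so its values equal the main ones and count among those that kept their sign. No paired analysis was possible because the 3 values of a group carry no replicate number. A test for raw counts was not run, because the deposited columns hold normalized values; voom on the recovered reads called 12774, 0, 6401 and 1984 regions at 3, 8 and 11 weeks and with TNF. Depth limits the Apoa1 and Apoc4 regions most, with as few as 50 reads in a library.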
